A study of Mus musculus with 10 samples.

Results

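Ikzf1, Runx1, Cebpb, Nfil3, Zbtb7b and Tcf7 are 6 of the 545 endogenous genes of the nCounter mouse immune panel, and each encodes a transcription factor. They were picked by gene name with earlier results of the same lanes known, so their differences between the groups are given below as a description, and any p-value printed for them comes from a fit over the whole panel and supports nothing by itself. All 6 were found in both deposited tables. Each exceeded the negative-control limit (2 SD over the mean of that lane's negative probes) in all 10 lanes, except Tcf7, which did so in 9, and all 6 were among the 283 genes fitted.

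The samples were microglia, the macrophages that live in brain tissue, taken from the hippocampus of male Balb/c pups at postnatal day 14 by Percoll gradient and cell sorting, with a sort gate that is not given in the sources used. The 5 control pups carry the numbers 1, 18, 40, 52 and 69. The 5 pups with brief daily separation (BDS), numbered 11, 17, 24, 38 and 59, were parted from the dam for 15 min each day under a schedule given as postnatal days 1 to 21, which was still running at collection. How control litters were handled is not stated in those sources. Every pup came from a different litter, and 2 ng of RNA per pup was converted to cDNA and amplified by 5 rounds of PCR before it was read in 1 lane.

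Transcription factors of this kind bind DNA and set which genes a cell of the blood and immune lineages expresses. Ikzf1 (Ikaros) is a zinc-finger protein needed in lymphoid development and also present in microglia, and Runx1 binds DNA with the partner Cbfb in blood stem cells and in the yolk-sac lineage from which microglia arise. Cebpb and Nfil3 are basic leucine zipper proteins: Cebpb drives inflammatory genes in macrophages, and Nfil3 is a repressor known from natural killer cell development and the circadian clock. Zbtb7b (ThPOK) commits thymocytes to the CD4 fate, and Tcf7 (TCF-1) is a partner of beta-catenin best known from T cells.

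The panel reads each gene with a single probe, named in the files by a transcript: NM_001025597 for Ikzf1, NM_001111021 for Runx1, NM_009883 for Cebpb, NM_017373 for Nfil3, NM_009565 for Zbtb7b and NM_009331 for Tcf7. All 6 matched the same symbol in RefSeq. RefSeq lists more than 1 transcript for every one of them, from 3 for Cebpb to 33 for Ikzf1, and Ikzf1, Runx1, Zbtb7b and Tcf7 each have 2 listed start sites, so a count does not say which start was used. The windows before both starts are shown for Runx1, the member whose starts lie farthest apart, and for Zbtb7b, the member whose groups did not overlap. Each holds the 250 bases that precede a listed start, from RefSeq on GRCm38.p6, read 5′ to 3′ on the gene's minus strand. Capitals mark any match to 6 core motifs searched on both strands: TGTGGT (Runx), TGGGAA (Ikaros), TTGCNNAA (C/EBP), TTACNTAA (Nfil3), CTTTGA (Tcf) and GAGGAA (a purine-rich core read by Ets factors).
Runx1, upstream start, chr16:92826075-92826324: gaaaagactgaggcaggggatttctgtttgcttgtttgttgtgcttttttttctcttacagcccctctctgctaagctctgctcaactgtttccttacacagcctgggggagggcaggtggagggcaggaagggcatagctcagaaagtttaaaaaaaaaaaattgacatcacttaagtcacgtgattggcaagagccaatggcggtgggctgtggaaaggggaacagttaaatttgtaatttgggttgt
Runx1, downstream start, chr16:92697330-92697579: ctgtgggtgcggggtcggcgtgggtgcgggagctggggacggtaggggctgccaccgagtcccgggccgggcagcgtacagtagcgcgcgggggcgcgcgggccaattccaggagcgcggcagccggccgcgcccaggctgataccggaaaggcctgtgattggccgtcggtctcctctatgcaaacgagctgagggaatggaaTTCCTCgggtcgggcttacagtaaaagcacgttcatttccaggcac
Zbtb7b, upstream start, chr3:89393379-89393628: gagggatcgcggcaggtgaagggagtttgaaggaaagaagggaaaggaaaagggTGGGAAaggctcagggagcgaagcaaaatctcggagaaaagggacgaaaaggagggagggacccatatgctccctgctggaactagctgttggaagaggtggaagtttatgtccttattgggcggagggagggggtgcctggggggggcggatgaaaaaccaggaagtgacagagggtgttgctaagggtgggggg
Zbtb7b, downstream start, chr3:89387672-89387921: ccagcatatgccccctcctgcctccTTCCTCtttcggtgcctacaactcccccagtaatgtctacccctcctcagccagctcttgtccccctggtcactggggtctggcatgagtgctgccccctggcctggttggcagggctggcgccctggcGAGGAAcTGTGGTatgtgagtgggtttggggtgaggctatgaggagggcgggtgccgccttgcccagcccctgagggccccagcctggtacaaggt

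The Runx1 windows differed in base composition, with 45.6% G and C before the upstream start and 67.6% before the downstream one, where the median of all 32851 windows was 52.4%. None of the 6 motifs lay in the upstream Runx1 window, and the downstream one held 1 Ets-type core. The downstream Zbtb7b window held a Runx core 89 to 84 bases before the start, 1 base away from an Ets-type core at 96 to 91, and a further Ets-type core at 225 to 220. The upstream Zbtb7b window held 1 Ikaros core. In all windows of this length, 14.0% held the Runx core, 21.6% the Ikaros core, 23.3% the Ets-type core, 13.8% the Tcf core, 9.56% the C/EBP motif and 2.06% the Nfil3 motif. These matches describe the letters only.

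Lanes differed widely in depth, which bears on all 6 genes. The housekeeping signal, which averages the raw counts of Tbp, Sdha, Polr1b, Oaz1, Gapdh and Alas1 geometrically, ran from 113 in control 52 and 212 in control 69 to 1254 in BDS 17, an 11.1-fold range. It was higher in BDS lanes by 1.23 on the log2 scale (exact two-sided permutation p = 0.0873, n = 5 each). The gap was 1.61 without control 40 (exact p = 0.0317), 1.46 without BDS 11 (exact p = 0.0476) and 0.80 without control 52 (exact p = 0.175). Leaving out any other single lane gave 1.03 to 1.42 (exact p = 0.0952 to 0.175), and leaving out control 52 and 69 gave 0.38 (exact p = 0.393). Each raw count was divided by this signal and rescaled to the average lane to give the normalized counts below. Control 52 was the highest lane in 29.3% of the 283 genes and the lowest in 29.0%, so results are also given without it. In sorted cells read in bulk, fewer cells that express a gene and less RNA per cell cannot be told apart.

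Ikzf1 and Zbtb7b had higher means in BDS lanes, with little or no overlap between the groups in normalized counts. In the authors' deposited scores the groups overlapped for both genes. By normalized counts Nfil3 had a lower mean in BDS lanes, although these all lay within its control range. Runx1, Cebpb and Tcf7 overlapped widely too. Nfil3 turned to 0.67 on the log2 scale when lanes were scaled to the positive controls alone, which put 281 of 283 genes higher. edgeR's quasi-likelihood fit put none of the 6 under an adjusted p of 0.05, and none of the 283 genes (0%); limma on log2 values did the same, and DESeq2 put 25 genes under it, with 0 members among them. At an unadjusted p under 0.05 the 3 genes Ikzf1, Zbtb7b and Nfil3 stood among 80 of the 283 (28.3%), 55 of them higher (19.4%) and 25 lower (8.83%) in BDS. By sign alone 3 members were higher and 3 lower, and 55.8% of all fitted genes were higher. Because the members were chosen with this contrast in view, nothing is read from these counts.

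Ikzf1, the zinc-finger factor shared by lymphoid cells and microglia, stood at 1027, 1248, 1182, 949 and 1141 normalized counts in control pups 1, 18, 40, 52 and 69. In BDS pups 11, 17, 24, 38 and 59 it stood at 1205, 1869, 1480, 1394 and 1777. The groups met only at BDS 11, which lay below control 18, and the other 4 BDS lanes lay above every control lane. The means were 1109 ± 121 in control and 1545 ± 275 in BDS lanes (SD, n = 5 each), and the fitted difference was 0.48 ± 0.18 on the log2 scale (SE; adjusted p = 0.126 by edgeR). Control 52, the shallowest lane, was the lowest of the 10, and without it the control mean was 1150 ± 93.0 (SD, n = 4) and the difference 0.43 ± 0.17. In the authors' deposited scores the overlap was wider, with BDS 11 at 1660 and BDS 38 at 1774 below control 18 at 1880. There BDS 11 also lay below control 69 at 1756.

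Zbtb7b, the CD4-lineage factor, was the 1 member whose groups did not overlap, something seen in 13 of the 283 genes (4.59%), 10 of them higher in BDS (3.53%). Control pups 1, 18, 40, 52 and 69 had 281, 192, 262, 209 and 228 normalized counts. BDS pups 11, 17, 24, 38 and 59 had 299, 425, 282, 336 and 337. The separation was narrow: the highest control lane, control 1 at 281.1, lay just under the lowest BDS lane, BDS 24 at 282.2. Means were 234 ± 36.9 and 336 ± 55.3 (SD, n = 5 each), 0.51 ± 0.19 apart on the log2 scale of the fit (SE; adjusted p = 0.126 by edgeR). Without control 52 the control mean was 241 ± 39.3 (SD, n = 4) and the difference 0.48 ± 0.19. In the authors' deposited scores, which follow the housekeeping factor without Sdha, the groups overlapped, with control 1 at 420 above BDS 24 at 378 and BDS 11 at 412 (4.24% of the 283 genes did not overlap in those scores). The size of the spread was alike in both groups, with a coefficient of variation of 15.7% in control and 16.5% in BDS lanes.

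**Figure D1:**
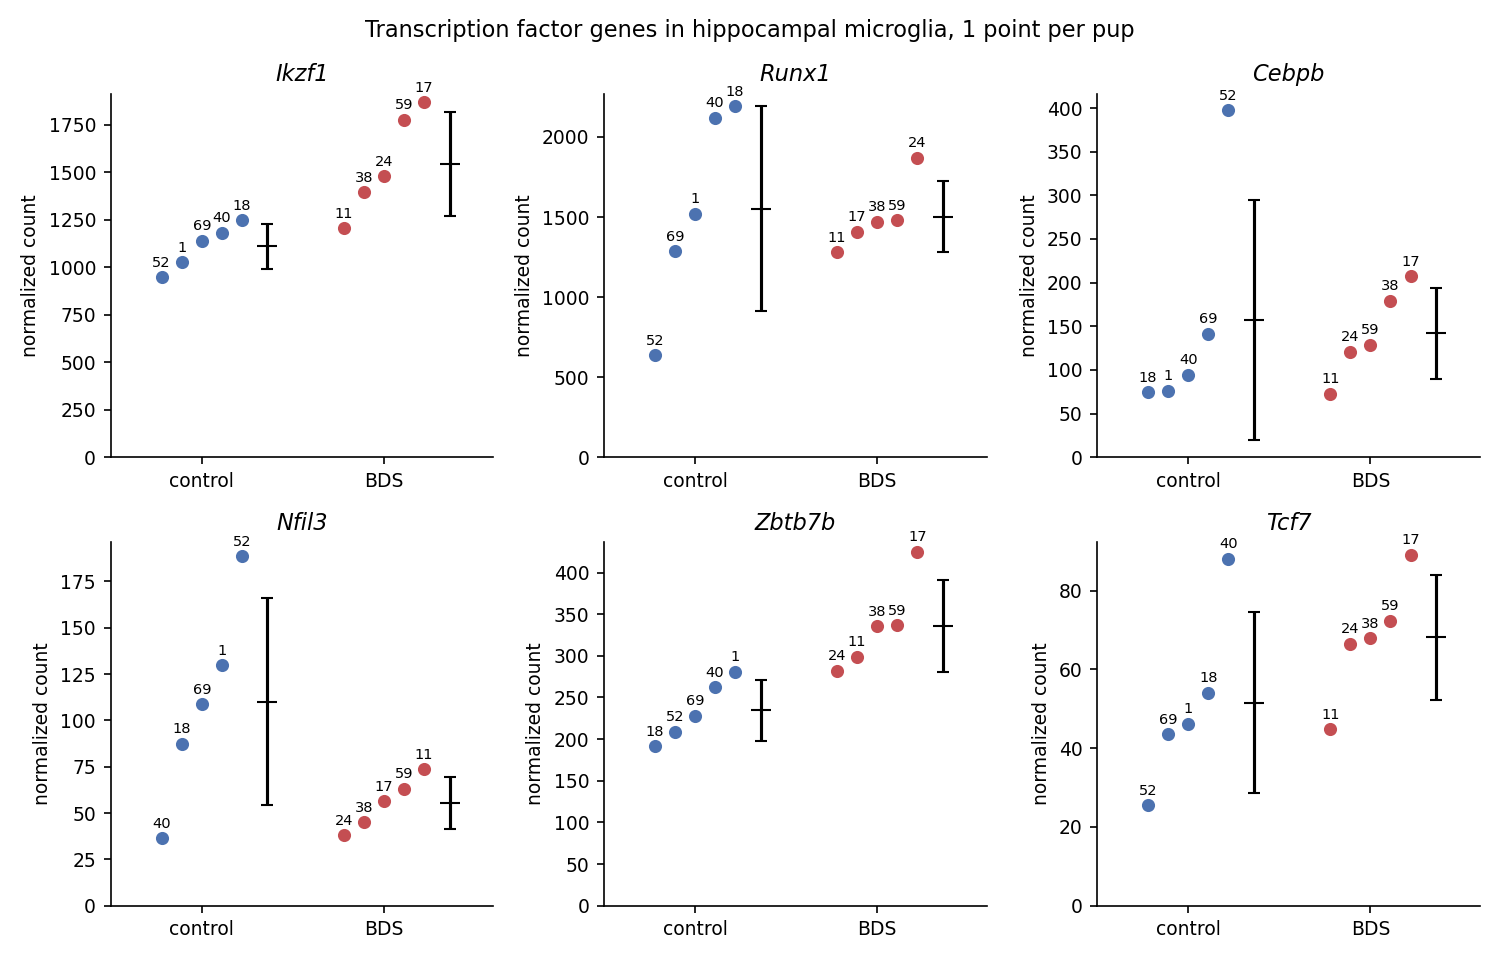
Normalized counts of the 6 transcription factor genes (vertical axes, from 0) in control (blue) and BDS (red) pups, 1 numbered point per pup, with mean ± SD in black (n = 5 each). Zbtb7b separated the groups narrowly, at 281.1 against 282.2, and control 52 stood alone for Cebpb at 398.

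Nfil3, the leucine zipper repressor, had the largest fitted difference of the 6, and its raw counts had the narrowest range. Normalized counts were 130, 87.4, 36.4, 189 and 109 in control pups 1, 18, 40, 52 and 69. They were 73.8, 56.5, 38.2, 45.1 and 63.1 in BDS pups 11, 17, 24, 38 and 59. The BDS lanes all lay below the control mean, but the lowest lane of all was a control, number 40. Means were 110 ± 55.9 in control and 55.3 ± 14.2 in BDS lanes (SD, n = 5 each), and the fitted log2 difference was -0.94 ± 0.36 (SE; adjusted p = 0.132 by edgeR). Leaving out control 40, the deepest control lane, gave -1.19 and an edgeR adjusted p of 0.0238, the 1 setting that put a member past 0.05. Without control 52, the highest lane, the control mean was 90.6 ± 40.1 (SD, n = 4) and the value -0.69 ± 0.33. With the log2 housekeeping signal of the lane as a covariate the value was -0.20 ± 0.31, and without control 52 and 69 it was -0.60 ± 0.36.

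The raw counts of Nfil3 ranged from 37 in control 52 to 123 in BDS 17, a 3.32-fold range against 11.1-fold for the housekeeping signal. Only 10 of the 283 genes had a narrower raw range, and the median range was 14.8-fold. Raw ranges of the other members were 8.67-fold for Cebpb, 21.9-fold for Ikzf1, 22.6-fold for Zbtb7b, 31.2-fold for Runx1 and 38.8-fold for Tcf7. All of these but that of Cebpb were wider than the range of the housekeeping signal. Negative-control limits were 13.9 to 26.3 raw counts per lane, so Nfil3 stayed above its limit in each. The 5 lowest normalized values were those of the 5 lanes with the highest housekeeping signal, BDS 17, 24, 38 and 59 and control 40. The part of depth in the differences of Nfil3 and the other members was not tested beyond the covariate fits.

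Cebpb, the inflammatory gene activator, was set apart by 1 lane. Control pups 1, 18, 40, 52 and 69 had 76.2, 74.7, 94.6, 398 and 141 normalized counts, from raw counts of 61, 83, 174, 78 and 52. BDS pups 11, 17, 24, 38 and 59 had 72.6, 207, 121, 179 and 129, from raw counts of 60, 451, 209, 346 and 182. With control 52 the control mean was 157 ± 137 against 142 ± 52.6 in BDS lanes (SD, n = 5 each), or -0.04 ± 0.44 on the log2 scale of the fit (SE; adjusted p = 0.957 by edgeR). Without that lane the control mean was 96.7 ± 31.0 (SD, n = 4) and the log2 fold change was 0.59 ± 0.31, of the opposite sign (edgeR adjusted p = 0.200). It was 0.80 ± 0.32 without control 52 and 69 and 0.76 ± 0.49 with lane depth as a covariate. The sign for Cebpb turned in 13 of 30 alternatives. Some of these kept the shallowest lane, such as leaving out BDS 11 (0.12) or BDS 24 (0.0012). The raw count of Cebpb in control 52 was above that in control 1, where the housekeeping signal was 461 against 113.

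**Figure D2:**
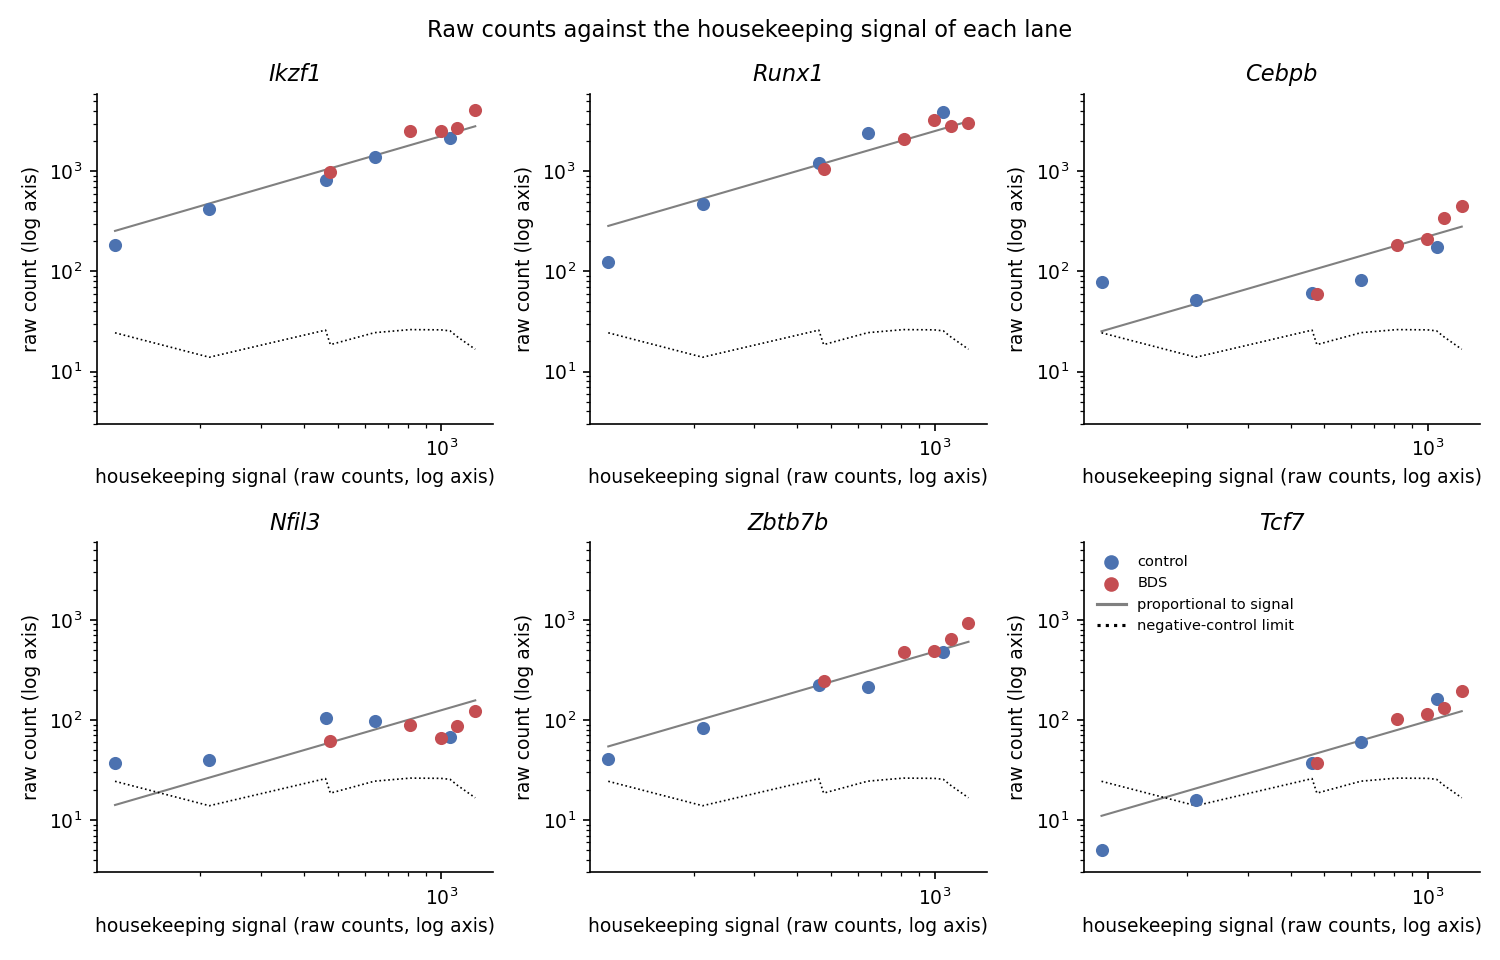
Raw counts of each gene (vertical axis, log scale) against the housekeeping signal of the lane (horizontal axis, log scale), control lanes blue and BDS lanes red; the grey line is proportional to the signal and the dotted line joins the lanes' negative-control limits. Nfil3 stayed between 37 and 123 raw counts over an 11.1-fold range of signal. Ikzf1 ran from 186 to 4067, a 21.9-fold range that was wider than that of the signal.

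Runx1, the partner of Cbfb in blood lineage specification, overlapped fully between the groups. Its normalized counts were 1520, 2194, 2121, 637 and 1285 in control pups 1, 18, 40, 52 and 69. In BDS pups 11, 17, 24, 38 and 59 they were 1279, 1409, 1870, 1470 and 1481. All BDS lanes lay within the range of the control lanes, which ran from control 52 at the bottom to control 18 at the top. The means were 1551 ± 641 and 1502 ± 221 (SD, n = 5 each), with a fitted log2 difference of -0.05 ± 0.27 (SE; adjusted p = 0.915 by edgeR). Without control 52 the control mean was 1780 ± 447 (SD, n = 4) and the value -0.25 ± 0.19 (edgeR adjusted p = 0.371). Leaving out control 18 turned the value to 0.10 ± 0.28 and leaving out control 40 to 0.08 ± 0.28. Without control 52 and 69 it was -0.37 ± 0.18 (edgeR adjusted p = 0.173) and with lane depth as a covariate -0.51 ± 0.20 (edgeR adjusted p = 0.369).

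Tcf7, the beta-catenin partner, was the 1 member that fell under its limit in a lane. Control pups 1, 18, 40, 52 and 69 had 46.2, 54.0, 88.1, 25.5 and 43.5 normalized counts. BDS pups 11, 17, 24, 38 and 59 had 44.8, 89.1, 66.5, 67.8 and 72.3. The lowest, control 52, rests on 5 raw counts under a limit of 24.4, and the highest control lane, number 40, lay above 4 of the BDS lanes. Means were 51.5 ± 23.0 and 68.1 ± 15.9 (SD, n = 5 each), and the fitted log2 difference was 0.33 ± 0.30 (SE; adjusted p = 0.481 by edgeR). Without control 52 the control mean was 57.9 ± 20.6 (SD, n = 4) and the value 0.20 ± 0.28, and without control 40 the value was 0.63 ± 0.28. With lane depth as a covariate it was -0.12 ± 0.23, and without control 52 and 69 it was 0.11 ± 0.28.

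Ikzf1 and Zbtb7b had the same sign in every setting tried. Ikzf1 was at 0.42 ± 0.18 and Zbtb7b at 0.46 ± 0.21 without control 52 and 69, and they were at 0.32 ± 0.19 and 0.40 ± 0.21 with lane depth as a covariate (edgeR adjusted p = 0.372 each). Scaled without Sdha, as the deposited scores are, they were at 0.29 and 0.33, while the median of all 283 genes moved from 0.09 to -0.09. At an unadjusted p under 0.05 the members were Cebpb and Ikzf1 without control 52 and 69 (31.3% of 278 genes), Ikzf1 and Zbtb7b without control 52 alone (32.3% of 282), and Runx1 with the covariate (12.7% of 283). Nfil3 was the only member under it with TMM scaling (75 of 283 genes), median-of-ratios scaling (73), scaling without Sdha (74) and limma on the authors' scores (65). With TMM and median-of-ratios scaling Ikzf1 was at 0.34 and 0.33, and Zbtb7b at 0.37 and 0.36.

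**Figure D3:**
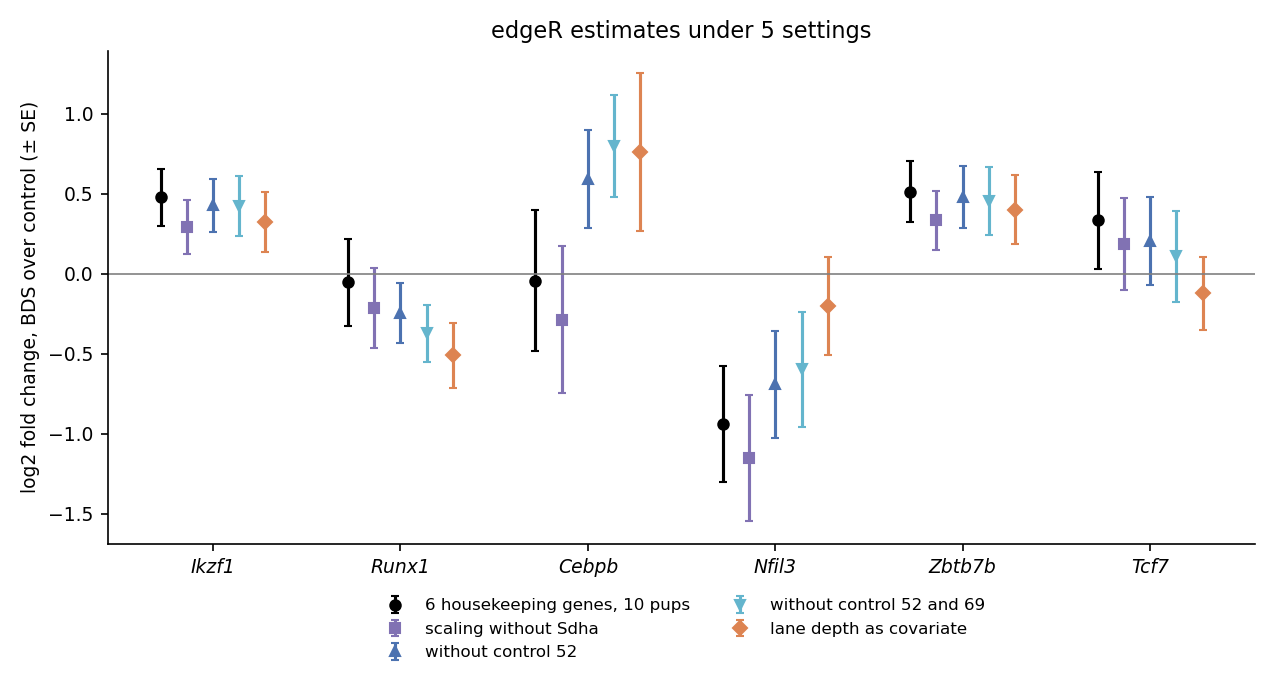
edgeR log2 fold changes, BDS over control (vertical axis, ± SE), of the 6 genes under 5 settings given by colour and marker. Ikzf1 and Zbtb7b stayed above 0 in all 5, Cebpb moved from -0.04 to 0.80 without control 52 and 69, and Nfil3 moved from -0.94 to -0.20 with lane depth as a covariate.

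The authors' deposited table gives each member as above background in 100% of samples, Tcf7 included. For Ikzf1, Zbtb7b and Nfil3 the authors' deposited table has ratios of the BDS over the control mean of 1.23 (unadjusted p = 0.0565), 1.26 (p = 0.0346) and 0.43 (p = 0.0577). For Tcf7, Runx1 and Cebpb the authors' deposited table has 1.19 (p = 0.3831), 0.87 (p = 0.4750) and 0.76 (p = 0.5977). The deposited Cebpb score was 659 in control 52, against 100 to 269 in the BDS lanes.

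Lanes at the extremes were shared. BDS 17, the deepest lane, was the highest of the 10 for Ikzf1, Zbtb7b and Tcf7. Control 52, the shallowest, was the lowest for Ikzf1, Runx1 and Tcf7 and the highest for Cebpb and Nfil3. Within control pups the coefficient of variation was 10.9% for Ikzf1, 41.3% for Runx1, 44.7% for Tcf7, 50.8% for Nfil3 and 87.5% for Cebpb. In BDS pups it was 17.8%, 14.7%, 23.3%, 25.6% and 37.1% in the same order.

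For each member the 3 genes with the most similar pattern were named by Pearson r of log2 normalized counts over the 10 lanes after each group's mean was taken out; all points share the lane's depth and housekeeping divisor, so these are descriptions. Ikzf1 was most alike the myeloid inhibitory receptor gene Lilrb4 (r = 0.93), then the chemokine receptor gene Cxcr6 (0.86) and the kinase gene Mapkapk2 (0.82), and without control 52 Lilrb4 stood at 0.94. Nfil3 was most alike Cd3eap (0.94), which despite its symbol encodes an RNA polymerase I subunit, the interferon-induced GTPase gene Irgm1 (0.93) and the homeobox gene Hlx (0.90), at 0.94, 0.92 and 0.87 without control 52. Cebpb was most alike the cytokine gene Il18, the ectonucleotidase gene Entpd1 (0.97 each) and the receptor gene Tnfrsf14 (0.96), at 0.91, 0.97 and 0.91 without control 52.

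Tcf7 was most alike the RNA sensor gene Tlr3 (r = 0.97), the kinase gene Irak4 (0.94) and the sialomucin gene Cd164 (0.93), at 0.94, 0.92 and 0.91 without control 52. Runx1 was most alike the flagellin receptor gene Tlr5 (0.94), the perforin gene Prf1 (0.93) and the cullin gene Cul9 (0.92), but at 0.75, 0.74 and 0.68 without control 52. Zbtb7b was most alike the receptor gene Notch2 (0.85), the class II gene H2-Ab1 (0.77) and the integrin gene Itga5 (0.74), at 0.86, 0.77 and 0.78 without control 52. No member was among the 3 genes most alike another member. Without control 52 and 69 the 3 most alike genes changed for every member: 2 of 3 were kept for Nfil3, 1 of 3 for Ikzf1, Cebpb, Zbtb7b and Tcf7, and 0 of 3 for Runx1.

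Tcf7 and Zbtb7b are known from T cells, so markers of other cell types were read in the same lanes. All 13 microglia genes looked at (among them Csf1r, Cx3cr1 and Trem2) exceeded the limit in every lane, with a summed level of 151310 to 208383 normalized counts in control and 156344 to 190855 in BDS lanes. Of 20 T cell genes, Il7r, Cd27 and Icos exceeded it in at least 4 lanes. A further 7 did so in 1 to 3 lanes: Cd5 in 3, Cd4, Cd8b1, Lck and Foxp3 in 2 each, and Cd8a and Tbx21 in 1 each, the highest being Cd5 at 35 raw counts. The other 10, the T cell receptor complex genes Cd3d, Cd3e and Cd247 among them, exceeded it in 0 lanes, although no listed gene was at 0 raw counts in any lane. In a single lane between 1 and 9 of the 20 exceeded the limit. The summed T cell list ran from 1199 to 2505 in control and 1273 to 2038 in BDS lanes. Il7r, a cytokine receptor gene, made up 40.9% to 86.0% of it. Both the sum and this share include genes under the limit, whose counts are scaled up most in control 52. There the limit was 124 normalized counts, against 7.68 to 37.8 in the other lanes.

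Of the other lists, 2 of 10 B cell genes, 2 of 9 natural killer cell genes, 2 of 8 monocyte and neutrophil genes and 3 of 5 endothelial genes exceeded the limit in at least 4 lanes. The summed B cell list ran from 998 to 1570 normalized counts in control and 1401 to 1946 in BDS lanes. The adaptor gene Blnk made up 68.2% to 87.5% of that sum, at a log2 difference of 0.40 ± 0.20 (edgeR adjusted p = 0.198), while the B cell receptor gene Cd79b was at -0.14 ± 0.22 (edgeR adjusted p = 0.676). The summed monocyte and neutrophil list ran from 1627 to 3560 in control and 1190 to 1863 in BDS lanes. The growth factor receptor gene Csf3r made up 85.8% to 95.4% of it, at -0.77 ± 0.24 (edgeR adjusted p = 0.0888), while the monocyte chemokine receptor gene Ccr2 stood on the other side, at 0.59 ± 0.23 (edgeR adjusted p = 0.137). The summed natural killer list ran from 129 to 275 in control and 123 to 153 in BDS lanes. In at least 1 lane 0 of its 9 genes exceeded the limit, and 5 of them exceeded it in no lane. Its sums thus include counts near background, which are scaled up most in control 52 (limit 124 normalized counts), and are not read as amounts of these cells. The summed endothelial list ran from 785 to 1698 in control and 999 to 1101 in BDS lanes. The part of such cells in the members' values was not tested.

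Some other transcription factors and cofactors on the panel, outside the NF-kB, STAT, IRF and Smad families, were listed from general knowledge with earlier results known. The list was not complete, and Hlx, Trp53 and Ski, for example, were not on it. Of the 34 listed genes on the panel 18 were fitted, 8 higher and 10 lower in BDS, and 0 passed edgeR's adjusted p of 0.05. Nfatc1 passed it by DESeq2, by edgeR without BDS 11, with positive controls alone and without control 40, and Tcf4 passed it without control 40. At an unadjusted p under 0.05 there were 4, against 28.3% of all fitted genes. They were the calcium-responsive factor Nfatc1 (0.87 ± 0.28; edgeR adjusted p = 0.0968) and the E protein Tcf4 (0.57 ± 0.26; edgeR adjusted p = 0.159) on the higher side. On the lower side were Ctnnb1, the beta-catenin that Tcf7 binds (-0.53 ± 0.24), and Ets1 (-1.06 ± 0.47), with an edgeR adjusted p of 0.156 each.

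Among blood and myeloid lineage factors 4 of 8 were fitted and all 4 were lower, with a median log2 fold change of -0.45 against 0.09 over all fitted genes (1.03 against 1.35 when scaled to the positive controls alone). The median was -0.16 with lane depth as a covariate and -0.26 without control 52, each with 3 of the 4 lower. With the negative mean subtracted it was -0.24, also with 3 of 4 lower, and with all 14 housekeeping genes -0.27. It was -0.26 over the 2 genes above the limit in 8 lanes, and -0.28 without BDS 17 and -0.23 without BDS 38, where 2 genes were fitted. The Ikaros relative Ikzf2 (-0.56 ± 0.51) and Ets1 exceeded the limit in 4 lanes only, while Maf (-0.34 ± 0.18) and Tal1 (-0.19 ± 0.17) did so in all 10. Ikzf3, Ikzf4, Runx3 and Gfi1, which include the other relatives of Ikzf1 and Runx1 on the panel, were not fitted. Of 18 lymphoid lineage factors 9 were fitted, 5 higher and 4 lower, with a median of 0.02, which lay between -0.16 and 0.12 over the alternatives other than positive controls alone. Bcl6 was at 0.41 ± 0.25 and Prdm1 at -0.12 ± 0.26, and the T cell factors Gata3, Tbx21, Foxp3 and Lef1, the last a close relative of Tcf7, were not fitted. Of 8 stimulus-induced and nuclear receptor factors 5 were fitted, 3 higher and 2 lower, with a median of 0.23 (0.018 to 0.37 over the alternatives other than positive controls alone, 0.048 without BDS 17 and 0.14 without control 40), Hif1a being at -0.43 ± 0.20 and Xbp1 at 0.29 ± 0.17.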

How the data were processed

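The members and gene lists were chosen with earlier results of these data known. The raw deposited file gives barcode counts by probe (545 endogenous genes, 14 housekeeping genes, 8 negative and 6 positive controls); which software counted them is not given in the sources used here. In the second deposited file the authors' normalized values, a score scaled per lane and rounded to whole numbers, rest on positive controls and housekeeping genes per the series' design text. The authors' deposited table also holds the percent of samples above background, a fold change (ratio of means) and an unadjusted p-value, copied as given.

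Scaling used the 6 named housekeeping genes (geometric mean), since a positive-control factor cancels in that ratio. Genes with raw counts over the limit (2 SD above the lane's negative mean) in 4 or more of 10 lanes (40%) were fitted: 283 of 545. Raw counts were fitted with edgeR 4.0.16 in R 4.3.3 (quasi-likelihood F test, two-sided, no covariate, Benjamini-Hochberg over 283 genes); each SE is the estimate divided by the root of its F. Positive values are higher in BDS. DESeq2 1.42.0 and limma 3.58.1 (log2 with pseudocount 1 or 10) were alternatives, with other scalings, filters, background subtraction, a lane depth term and fits that leave out 1 pup. Exact permutation tests used scipy 1.17.1, over 252 assignments with all 10 lanes and over fewer where lanes were left out. Simulated counts were used to test the edgeR step. The rule named the members, the 3 genes most alike each, up to 3 genes by p in each direction per factor list and markers above the limit; T cell genes under the limit in most lanes and the factors not fitted were named after their values were seen. Endogenous counts ran from 76237 to 968930 per lane; with amplification and no molecular identifiers, counts are not independent molecules.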

Additional observations from a re-analysis of the deposited data

Results flagged for a closer look

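A lane far from the other 4 of its group was looked for in 44 named genes and both groups, 88 cases in all, of which 8 met Dixon's 95% limit. Among the members only Cebpb did, at 398 normalized counts in control 52. Il18 at 133, Entpd1 at 2744 and Tnfrsf14 at 184 also stood apart in control 52, but they had been named for a pattern like that of Cebpb, so they add nothing to it. The Il18 value rests on 26 raw counts and that of Tnfrsf14 on 36, close to the limit of 24.4 in that lane. Among the 26 genes not named for likeness to a member, 5 of 52 cases met the limit. Its chance rate of about 1 in 20 holds for independent, normally distributed values. These cases share lanes and their scaling, so nothing is read from a comparison with that rate. Ets1 stood apart in control 52 at 86.7, which rests on 17 raw counts under a limit of 24.4 and so is not above background. Control 40 stood apart for Tal1 at 452 and Tcf4 at 1493, and BDS 11 for Ets1 at 27.8.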

How the results depend on the processing

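Ikzf1 and Zbtb7b stayed higher in BDS and short of an adjusted p of 0.05 under all 30 alternatives, at 0.28 to 0.57 and 0.33 to 0.60 on the log2 scale, or 1.67 and 1.73 with positive controls alone. That scaling put 281 of 283 genes higher, with a median of 1.35, and turned Runx1 to 0.87, Cebpb to 1.83 and Nfil3 to 0.67. Runx1 also turned to 0.021 without Gapdh and 0.023 without Polr1b in the scaling, and to 0.068 and 0.066 by limma with pseudocounts of 1 and 10. Cebpb turned to 0.23 with all 14 housekeeping genes, 0.0017 without Gapdh, 0.095 without Polr1b, 0.030 without Tbp, 0.76 with lane depth as covariate, 0.093 and 0.078 by limma with pseudocounts of 1 and 10, 0.073 with the negative mean subtracted and 0.80 without control 52 and 69. Tcf7 turned to -0.12 with lane depth. The cause of these turns was not tested. With 1 pup left out, Ikzf1 lay between 0.40 and 0.55, Runx1 between -0.25 and 0.10, Cebpb between -0.24 and 0.59, Nfil3 between -1.19 and -0.69, Zbtb7b between 0.41 and 0.59 and Tcf7 between 0.20 and 0.63. Genes called at an adjusted p of 0.05 numbered 0 by edgeR, 25 by DESeq2, 12 without Gapdh, 15 without Polr1b, 34 with positive controls alone and 0 to 47 with 1 pup left out (47 without control 40, 19 without BDS 11), members among them being Nfil3 alone, without control 40.

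The alternatives for the list medians were added after seeing the data. The medians moved by more than the lanes' spread with positive controls alone (1.03 for blood and myeloid, 1.27 for lymphoid and 1.49 for stimulus-induced factors). Those of lymphoid and stimulus-induced factors also did so without Sdha (-0.16 and 0.025) and with the authors' scores (-0.16 and 0.018). Leaving out BDS 17 moved the stimulus-induced median by more than that spread too (0.048). With 1 pup left out the medians lay between -0.59 and -0.23 for blood and myeloid, -0.07 and 0.07 for lymphoid and 0.048 and 0.32 for stimulus-induced factors. The gap in housekeeping signal lay between 0.80 and 1.61 with 1 pup left out. Of the 3 most alike genes, rank correlation kept 1 for Runx1, Cebpb and Zbtb7b, 2 for Nfil3 and 0 for Tcf7. Uncentred values kept 2 for Ikzf1 and Runx1, 0 for Zbtb7b and 1 for Tcf7. A pseudocount of 10 kept 2 for Zbtb7b and Tcf7. Without control 52 and 69 the number was 1 for Ikzf1, Cebpb, Zbtb7b and Tcf7, 0 for Runx1 and 2 for Nfil3. With 1 pup left out it was 2 to 3 for Ikzf1 and Nfil3, 1 to 3 for Runx1, Cebpb and Tcf7 and 0 to 2 for Zbtb7b. No paired analysis was possible, because every pup came from a different litter and no pairing of control with BDS pups is given. Low counts limit Tcf7 in control 52 and 69, at 5 and 16 raw counts.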
